A study of Homo sapiens with 3 samples.

Results

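The genes described here are 54 genes of chromosome segregation, chosen by name from mitotic kinases and cyclins, the spindle checkpoint, the chromosomal passenger complex, the kinetochore, spindle kinesins, condensin and cohesin. They were among 61193 genes to which the transcripts of the deposited tables could be assigned, and all 54 were found. The cells were HEK293T, an established line from human embryonic kidney that carries the large T antigen of SV40, cultured without any treatment and collected 24 h after seeding. RNA was measured in 3 biological replicates of this single condition, with libraries that read the 3′ end of polyadenylated RNA, so no groups were compared and every value below describes 1 line in 1 state. The labels call the material genomic DNA, whereas their extraction protocol and the study's methods describe total RNA.

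Mitosis is started by the kinase CDK1 with cyclin B, after which condensin and topoisomerase II compact and untangle the chromosomes and kinetochores attach them to spindle microtubules. Unattached kinetochores keep the spindle checkpoint active, and once it is satisfied the anaphase-promoting complex (APC/C) with CDC20 marks securin and cyclin B for degradation, which frees separase to cut the cohesin ring that holds sister chromatids together. Many of these genes are transcribed mainly in G2 and mitosis, whereas cohesin also shapes chromatin throughout interphase. In RNA from a whole culture, the share of cells in mitosis and the amount of RNA in each such cell cannot be told apart.

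The libraries held 6262175 to 8521624 counts, of which 5.70 to 25.8% came from mitochondrial genes, with the highest share in replicate 3. A count of 0 allows up to 3 counts, which is 0.352 to 0.479 CPM (counts scaled to a library total of 1e+06) in these libraries, and covers counting error only. Of 8 markers looked for in HEK293T, 4 reached a mean of 1 TPM (counts divided by transcript length and scaled to a total of 1e+06), led by IGF2BP1 at 232 ± 81.8 TPM and LIN28B at 40.8 ± 14.8 TPM (SD, n = 3). Of the intermediate filament genes among them, KRT8 was at 1.35 TPM and VIM at 0.66 TPM, and KRT18, NEFL and NEFM had no count. Some of these genes share their 3′ end with other listed transcripts. Of the last 300 exonic bases of the representative isoform, 0% in VIM and NEFM, 2% in KRT18 and 100% in NEFL lay in no other listed transcript. KRT8 had no value. Low counts at shared ends bound the reads assigned and not the RNA. Of 9 markers of other cell types, 7 had at most 3 counts in every replicate, and COL1A1 alone passed 1 TPM, at 24.8 TPM.

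The 54 genes spanned the whole range from no count to the upper end of the expressed genes. A mean of at least 1 TPM was reached by 28 of them, beside 38.2% of the 19926 protein-coding genes and 21.7% of all genes. In expression categories set by the quartiles of all expressed genes (2.40 ± 0.0970 and 24.1 ± 3.80 TPM), 14 fell into the high category (12.5% of protein-coding genes), 10 into the medium (18.8%) and 4 into the low (6.93%). Among expressed protein-coding genes the high category took 32.8%, beside 14 of the 28 expressed genes of mitosis. At the other end, 23 had at most 3 counts in every replicate, as did 50.9% of protein-coding genes, and 11 of these had no count at all. The median over the 54 genes was 1.49 TPM, with an SD of 0.721 over the replicates, and over the 28 expressed ones it was 24.5 ± 6.72 TPM, beside 10.5 ± 1.55 TPM for all expressed protein-coding genes.

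The counts were concentrated in a few genes. TOP2A took 31.6% of the counts assigned to the 54 genes, the 3 genes with most counts (TOP2A, SMC3 and CENPF) 59.4%, and the 10 with most counts 93.1%. Together the genes received 64399, 64115 and 65510 counts in replicates 1, 2 and 3. This was 1.05% ± 0.0364 of the counts outside the mitochondrial genes (SD, n = 3). The summed level was 3159, 3691 and 2209 TPM, so replicate 3, the library with the largest mitochondrial share, was lowest in TPM and not in counts.

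**Figure D1:**
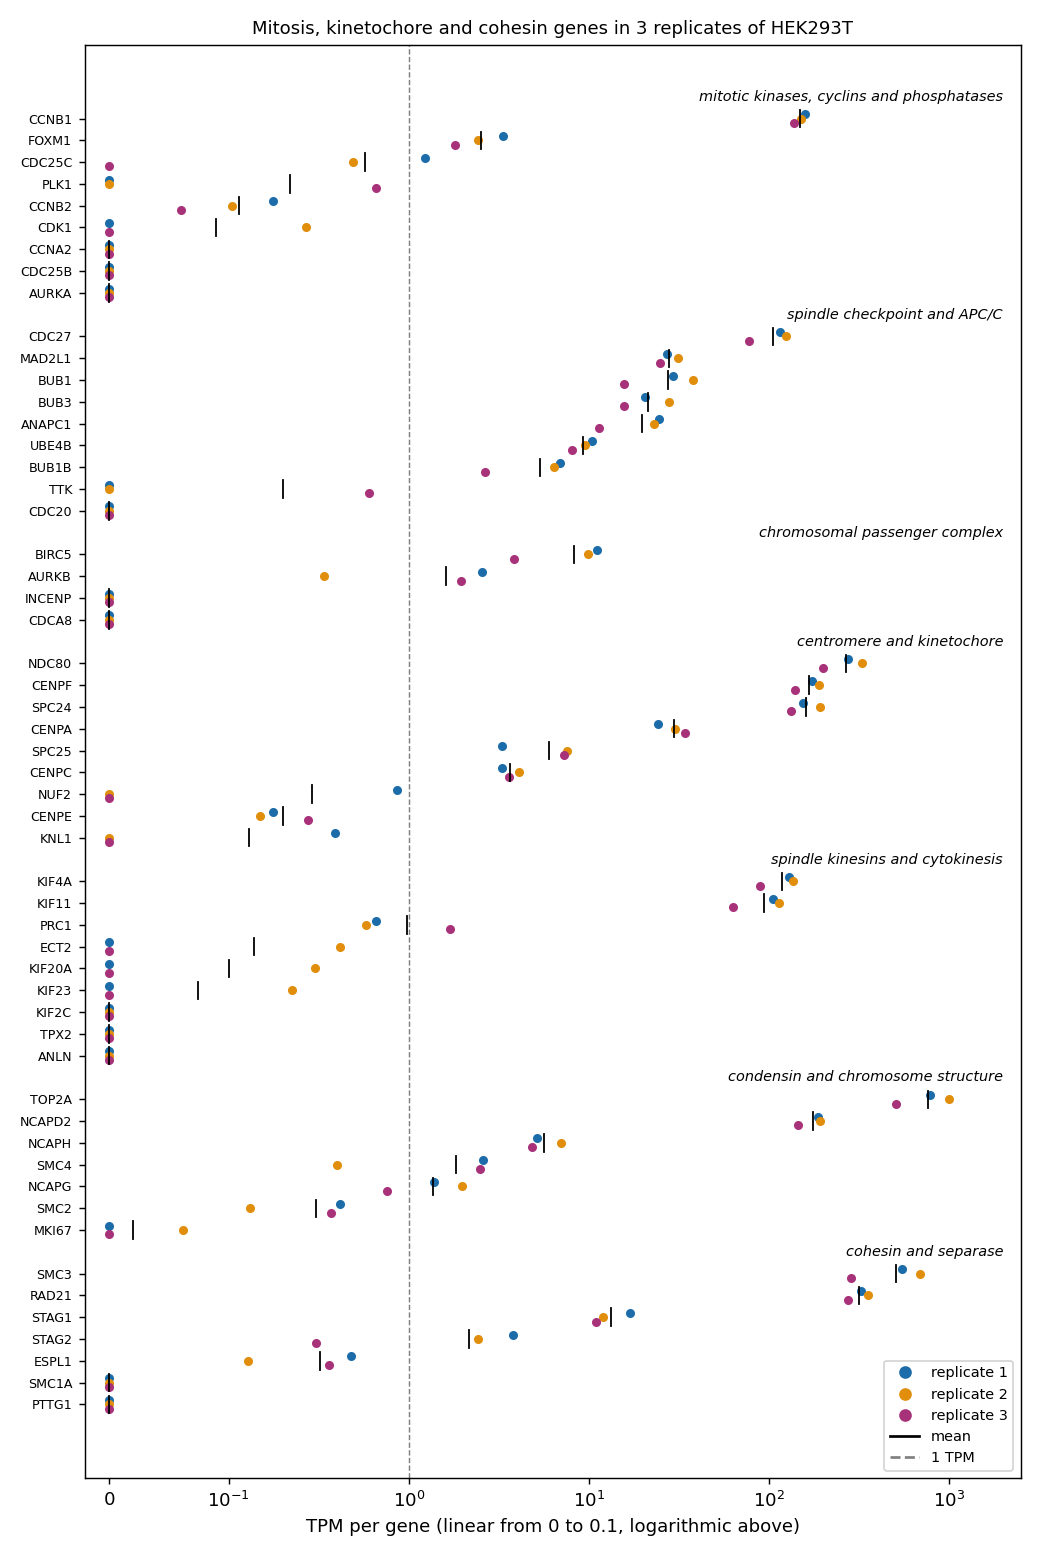
TPM of each of the 54 genes (vertical axis, grouped by role) in 3 replicates of HEK293T (points) with the mean (black bar), on an axis that is linear from 0 to 0.1 TPM and logarithmic above. The dashed line marks 1 TPM, which 28 genes reached, and TOP2A lies farthest to the right at 505 to 1000.3 TPM.

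The promoters of these genes share sequence that had no part in choosing them. The cell cycle genes homology region (CHR) is an element bound by the MuvB complexes, which repress mitotic genes in resting and G1 cells and, with B-MYB and FOXM1, activate them in G2. It was described on promoters of mitotic genes, some of them members here, so its presence is no independent finding about such genes as a class. RefSeq promoter windows, from 250 bases before to 50 bases after the start on GRCh38.p14, matched 46 of the 54 genes, and AURKA, TPX2, FOXM1, KNL1, BUB3, TTK, BIRC5 and RAD21 were not matched. The letters TTTGAA or TTTAAA, on either strand (the latter reads the same on both), were found in 38 of the 46 windows, 82.6%, beside 18.6% of 15341 protein-coding promoters of the same length. In 30 of them, 65.2%, a CHR motif was centred within 50 bases of the start, beside 5.68% of all promoters. With TTTGAA alone the counts were 31 of 46 and 11.6% of all promoters. The following windows of 30 bases lie upstream of the start and are printed 5′ to 3′ in the direction of the gene, with the motif in capitals. They were chosen to set genes of the high category (the first 5) beside genes with at most 3 counts in every replicate (the next 5). BUB1B is last for its likeness to KIF4A.
TOP2A, chr17:40418030-40418059, minus strand, motif from base 151 before the start: ctgattggtttaTTCAAAcaaaccccggcc
CCNB1, chr5:69167108-69167137, plus strand, from base 30: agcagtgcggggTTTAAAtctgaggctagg
KIF4A, chrX:70290058-70290087, plus strand, from base 34: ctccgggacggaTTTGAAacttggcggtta
KIF11, chr10:92593090-92593119, plus strand, from base 28: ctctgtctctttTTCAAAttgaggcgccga
CENPA, chr2:26786026-26786055, plus strand, from base 18: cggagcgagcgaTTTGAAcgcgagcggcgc
CCNB2, chr15:59105105-59105134, plus strand, from base 29: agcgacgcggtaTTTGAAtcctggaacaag
PLK1, chr16:23678848-23678877, plus strand, from base 29: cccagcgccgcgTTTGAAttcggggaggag
CDC20, chr1:43358904-43358933, plus strand, from base 65: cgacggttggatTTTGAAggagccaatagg
CDCA8, chr1:37692481-37692510, plus strand, from base 23: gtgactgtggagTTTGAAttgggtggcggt
MKI67, chr10:128126435-128126464, minus strand, from base 29: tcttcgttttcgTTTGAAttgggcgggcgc
BUB1B, chr15:40161034-40161063, plus strand, from base 23: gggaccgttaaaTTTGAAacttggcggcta
The motif stood 18 to 65 bases before the start in all of these but TOP2A. That range does not describe the high genes left out of this print. Their motif nearest the start began 151 bases before it in SMC3, 145 in NCAPD2 and 3 in NDC80. In CENPF and CDC27 it began 40 bases after the start and in MAD2L1 24 bases after, and BUB1 and SPC24 had none. BUB1B and KIF4A shared a run of 16 bases, aTTTGAAacttggcgg, the longest that any pair of the 38 windows of this kind had in common, and CDCA8 and MKI67 shared 12.

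Beside the CHR, promoters of mitotic genes often hold CCAAT boxes, which bind NF-Y. CCAAT, on either strand, was found in 34 of the 46 windows, 73.9%, beside 36.6% of all promoters, and both motifs in 27, 58.7%, beside 7.65%. SMC1A was the single gene with neither. The genes with neither TTTGAA nor TTTAAA in the window were CCNA2, CDC25B, BUB1, AURKB, SPC24, SMC1A, STAG1 and STAG2. Other forms of the element and sequence outside the window were not searched. For AURKB and STAG2 the start used lay 326 and 352 bases from that of the isoform named as representative by the annotation. SMC1A, STAG1 and STAG2 belong to the cohesin and separase group, where 3 of 6 windows had a CHR motif, beside 35 of 40 in the other groups. Among 81 windows of other mitosis genes, 33 had a CHR motif, 40.7%, and 29.6% had both motifs, shares between those of the genes described here and those of all promoters. A list of 41 DNA replication genes, which act before mitosis, in S phase, had the motif in 2 windows, 4.88%, and CCAAT in 53.7%. The study concerned i-motifs and G-quadruplexes, structures formed by runs of C or G. Sequence with 4 tracts of at least 3 C or 3 G and loops of up to 7 bases was found in 8 of the 46 windows, 17.4%, beside 34.5% of all promoters, namely in CDC25B, CDCA8, CENPC, SPC25, KIF4A, ANLN, MKI67 and STAG2. The CHR motif was present at both ends of the range of counts, in 16 of 19 genes with at most 3 counts in every replicate, in 22 of the other 27 and in 11 of 13 genes of the high category.

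**Figure D2:**
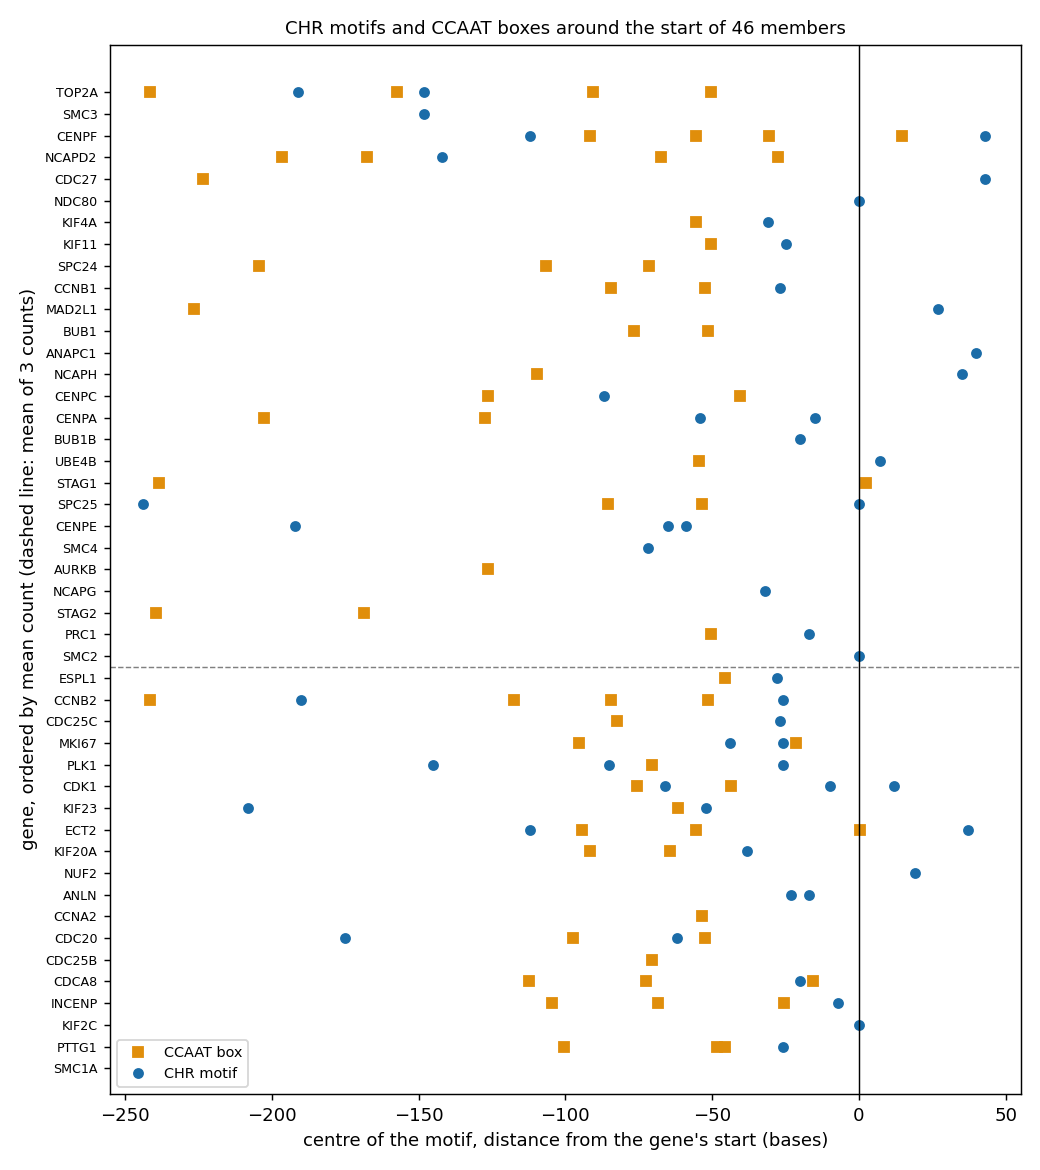
Position of CHR motifs (blue circles) and CCAAT boxes (orange squares) relative to the start of 46 genes, in bases, with genes ordered from the highest mean count at the top. A CHR motif is present in 38 genes, and some genes above and some below the dashed line at a mean of 3 counts have it close to the start. In TOP2A, SMC3 and NCAPD2, near the top, the nearest is centred at -148, -148 and -142 bases.

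Among the 9 mitotic kinases, cyclins, phosphatases and their transcription factor, CCNB1 alone was in the high category and 7 had at most 3 counts in every replicate. CCNB1, cyclin B1, had 1459, 1177 and 1864 counts in replicates 1, 2 and 3, or 158, 151 and 139 TPM (149.5 ± 9.98, SD, n = 3). FOXM1, which drives transcription of G2 genes, was near the lower quartile with 13, 8 and 10 counts at 2.52 ± 0.776 TPM. The remaining members were at or close to the counting limit: CDK1, the kinase that starts mitosis, had 0, 2 and 0 counts, CCNB2, cyclin B2, had 2, 1 and 1, PLK1, Polo-like kinase, 0, 0 and 3, and CDC25C, a phosphatase that activates CDK1, 3, 1 and 0. The genes of cyclin A2 (CCNA2), CDC25B and Aurora A (AURKA) had no count. Cyclin B1 and its partner kinase thus lay far apart in assigned counts, and both have a CHR motif before the start. Their 3′ ends differed in overlap. Of the last 300 exonic bases of the isoform named as representative, 100% in CCNB1 and 0% in CDK1 lay in no other listed transcript. The counts therefore do not compare the RNA of these genes, and the part of overlap in the difference was not tested.

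The spindle checkpoint and APC/C group had 7 of 9 genes expressed. CDC27, a subunit of the APC/C that binds its activators, led with 3041, 2795 and 3019 counts at 115, 125 and 77.6 TPM (mean 106). ANAPC1, its largest subunit, had 290, 253 and 222 counts at 19.7 ± 7.27 TPM. MAD2L1, which inhibits the APC/C when kinetochores are unattached, had 646, 629 and 863 counts at 27.2, 31.4 and 24.8 TPM. The kinase BUB1 was at 29.5, 37.9 and 15.7 TPM and its partner BUB3 at 20.6, 27.8 and 15.7 TPM, so both were highest in replicate 2 and lowest in replicate 3. BUB1B, the checkpoint protein BUBR1, was lower at 6.92, 6.40 and 2.66 TPM from 117, 86 and 66 counts. UBE4B, a ubiquitin ligase placed in this group by the list, was at 9.31 ± 1.15 TPM. TTK, the kinase MPS1, had 0, 0 and 3 counts, and CDC20, the activator that the checkpoint inhibits, had none.

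None of the 4 chromosomal passenger genes, which correct wrong attachments at the centromere, reached the high category. BIRC5, survivin, had 31, 22 and 16 counts at 11.1, 9.87 and 3.83 TPM. AURKB, the kinase of the complex, had 7, 1 and 10 counts at 1.61 ± 1.15 TPM and was under 1 TPM in replicate 2. INCENP and CDCA8 (borealin) had no count.

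Centromere and kinetochore genes were the group with most members in the high category, 4 of 9. NDC80 encodes the subunit that binds microtubules and had 2535, 2566 and 2685 counts at 275, 329 and 200.5 TPM (268 ± 64.6). SPC24, in the part of the same complex that faces the centromere, had 1520, 1570 and 1867 counts at 155, 192 and 132 TPM. CENPF, a large protein of the outer kinetochore, had 7959, 7410 and 9578 counts at 173, 190 and 141 TPM. All 3 genes were highest in TPM in replicate 2 and lowest in replicate 3. The remaining subunits of the NDC80 complex had far fewer counts: SPC25 had 20, 39 and 65 counts at 6.04 ± 2.39 TPM, and NUF2 had 1, 0 and 0. CENPA, the histone variant that marks centromeres, was at 24.3, 30.1 and 34.4 TPM from only 82, 86 and 171 counts, the single gene of the high category that was highest in replicate 3. CENPC, which binds CENPA nucleosomes, was at 3.66 ± 0.401 TPM, the kinesin CENPE had 7, 5 and 16 counts and stayed under 1 TPM in every replicate, and KNL1, which recruits the BUB proteins, had 1, 0 and 0 counts.

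Of 9 genes of spindle kinesins and cytokinesis, KIF4A and KIF11 were in the high category and 6 had at most 3 counts. KIF4A, a chromosome-bound kinesin, had 2568, 2286 and 2602 counts at 129, 136 and 88.9 TPM (118 ± 25.4). KIF11, the kinesin that pushes the spindle poles apart, had 2403, 2180 and 2115 counts at 106, 113 and 63.2 TPM (94.1 ± 27.0). PRC1, which bundles microtubules between the separating chromosomes, had 2, 3 and 9 counts and at 0.977 ± 0.628 TPM was the gene closest below 1 TPM. ECT2, which activates RHOA at the cleavage furrow, had 0, 1 and 0 counts, the kinesins KIF20A and KIF23 0, 1 and 0 and 0, 2 and 0, and KIF2C, TPX2 and ANLN had none.

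TOP2A, topoisomerase II alpha, had the highest level of all 54 genes and ranked 166 of all 61193 genes. Its 20295, 21815 and 19192 counts gave 786, 1000.3 and 505 TPM (764 ± 248), with replicate 2 highest and replicate 3 lowest. The condensin subunits differed widely. NCAPD2 had 3979, 3467 and 4643 counts at 187, 193 and 146 TPM (175 ± 25.7). NCAPH, the kleisin that closes the same ring, had 141, 161 and 194 counts at 5.65 ± 1.15 TPM, and NCAPG had 5, 6 and 4 counts at 1.37 ± 0.607 TPM, the gene closest above 1 TPM. The ATPase subunits SMC4 and SMC2 had 8, 2 and 11 and 4, 3 and 5 counts. MKI67, the proliferation antigen Ki-67 that coats mitotic chromosomes, had 0, 3 and 0 counts.

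Of the cohesin ring, 2 core subunits were abundant and 1 had no count. SMC3 had 10279, 10867 and 7826 counts at 551, 689 and 285 TPM (508 ± 205). RAD21, the kleisin that separase cuts, had 5498, 5093 and 6907 counts at 323, 354 and 276 TPM (318 ± 39.3). SMC1A, the partner of SMC3 in the ring, had no count in any replicate. Of the alternative subunits that bind RAD21, STAG1 had 93, 54 and 88 counts at 13.3 ± 3.22 TPM and STAG2 had 9, 4 and 2 counts at 2.16 ± 1.75 TPM. ESPL1, separase, had 2, 2 and 3 counts, and PTTG1, securin, none.

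Ordered by mean TPM, TOP2A, SMC3, RAD21, NDC80, NCAPD2 and CENPF followed each other with the same order in every replicate and each step larger than the SD of its log2 ratio. This order depended on division by transcript length. In mean CPM, CENPF (1147) lay above RAD21 (802), and NCAPD2 (555) and CDC27 (411) lay above NDC80 (362). CENPF and SPC24 changed order between replicates, as did SPC24 and CCNB1 and all neighbours in the run of CENPA, MAD2L1, BUB1, BUB3 and ANAPC1, and of these steps only that from BUB1 to BUB3 (0.32 ± 0.281 in log2) was larger than its SD. Of the neighbours below UBE4B, SMC4 and AURKB alone kept their order in all replicates. Of 18 pairs of paralogs or partners chosen by name, 5 had a mean of at least 10 counts in both genes, and an exact two-sided sign-flip test over 3 replicates cannot go below p = 0.25, so none was tested. On the log2(TPM + 1) scale, SPC24 exceeded its partner SPC25 by 4.56 ± 0.591 (SD, n = 3), NCAPD2 exceeded NCAPH by 4.73 ± 0.174 and CDC27 exceeded ANAPC1 by 2.41 ± 0.248. BUB1 exceeded its paralog BUB1B by 2.18 ± 0.226, and BUB3 exceeded BUB1B by 1.87 ± 0.381. All 5 differences had the same sign in every replicate and were several times their SD. That SD does not cover a bias of read assignment that is the same in every library. Of the last 300 exonic bases of the representative isoform, 28.3% in BUB1B and 56.7% in BUB1 lay in no other listed transcript. In BUB3 and in the genes of the other pairs 100% did. The size of the differences depended on the setting. In CPM, CDC27 exceeded ANAPC1 by 3.50 and BUB3 exceeded BUB1B by 3.06. On the representative (canonical) transcripts alone, CDC27 exceeded ANAPC1 by 4.06. Pairs added after the values had been seen were closer: SMC3 exceeded RAD21 by 0.59 ± 0.481, and by only 0.05 in replicate 3, NDC80 exceeded SPC24 by 0.73 ± 0.118, and BUB3 was below MAD2L1 by a log2 difference of -0.39 ± 0.226, whose sign turned to 0.15 on the CPM scale, which is not divided by length. Close to the third quartile, BUB1 at 27.7 ± 11.2 TPM was counted as high and BUB3 at 21.4 ± 6.05 TPM as medium, a difference smaller than the SD of BUB1 that did not keep its direction in every replicate. Close to the first, FOXM1 at 2.52 TPM was medium and STAG2 at 2.16 TPM low.

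The levels have to be read beside the way in which reads were assigned. The deposited counts are per transcript, and a read near a 3′ end that several listed transcripts share has no single transcript of its own. The canonical transcript is the isoform that the annotation names as representative of a gene. For 19 genes at least 50% of its last 300 exonic bases lay in no other listed transcript, beside 42.6% of protein-coding genes. Of these 19, 17 were expressed, 11 were in the high category and 2, CCNA2 and CDC25C, had at most 3 counts, and the median count was 783. For 34 genes the end was shared with other listed transcripts. Of these 34, 11 were expressed, 3 were high (TOP2A, RAD21 and CENPA) and 20 had at most 3 counts, with a median count of 1. KIF23 had no value, because its canonical transcript was not listed. The same direction held over all protein-coding genes, where 37% of 8251 with an end of their own and 61.4% of 11100 with a shared end had at most 3 counts in every replicate, with median counts of 21.3 and 0.333.

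The ends of single genes differed widely. The genes with no count included CDC20, AURKA, CDC25B, TPX2, KIF2C, ANLN, SMC1A and PTTG1, and in each of them 0% of the last 300 bases was covered by the canonical transcript alone. NDC80, SPC24, SMC3, KIF11, KIF4A and CDC27 had 73 to 100% of these bases to themselves. There were exceptions on both sides. TOP2A had 0.333% of its last 300 bases and 44.5% of its last 600 to itself, and RAD21 had 0%. Of the 10 listed transcripts of RAD21, 9 had another length in the annotation used here than in the tables. With such transcripts set aside the value was 100%, but little was then left that could overlap, so this says little about its end. CCNA2 had 100% of its last 300 bases to itself, 98.7% when transcripts of both strands were considered, and no count. Counts at the limit therefore bound what was assigned to the listed transcripts of a gene and not its RNA, and the part of overlap in them was not tested.

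**Figure D3:**
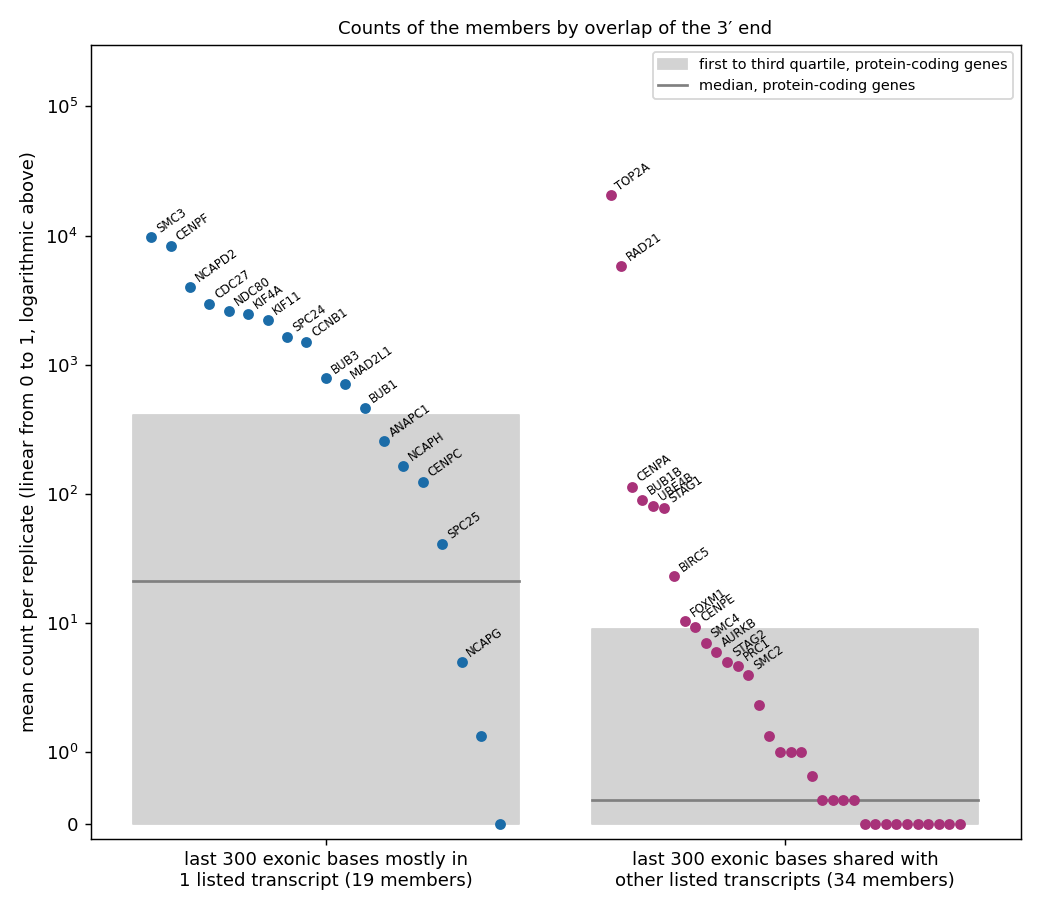
Mean count per replicate of 53 genes (vertical axis, linear from 0 to 1 and logarithmic above) by whether the final 300 exonic bases of the canonical isoform lay mostly in that transcript alone (19 genes, blue) or were shared (34 genes, purple). Grey boxes span the first to the third quartile and grey lines mark the median of all protein-coding genes, 21.3 and 0.333 counts, and the medians of the mitotic genes were 783 and 1.

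The transcripts that held the counts also differed between genes. Of 468 listed transcripts of the 54 genes, 86 had a count. In 18 of the 28 expressed genes more than 90% of the counts fell on the canonical transcript, in ANAPC1 78.4% did, and in 9 none did. Those 9 were FOXM1, UBE4B, AURKB, BIRC5, CENPA, SMC4, NCAPG, STAG1 and STAG2. CENPA, FOXM1 and NCAPG had no count on a transcript annotated as protein-coding. All 82, 86 and 171 counts of CENPA were on a transcript of 745 bases without a defined coding sequence, which starts at position 26786143 and ends at position 26801067 of chromosome 2. Its 29.6 TPM came from a mean of 113 counts, whereas the 27.8 TPM of MAD2L1 came from 713 counts on a transcript of 5227 bases, so these neighbours in TPM differed in the number of reads behind them. For STAG1, 63.8% of the counts were on a coding transcript of 1304 bases, and for UBE4B 71.8% were on a transcript with a retained intron. In the high category, 13 of 14 genes had more than 90% of their counts on the canonical transcript, with CENPA as the exception. With canonical transcripts alone, 19 genes were expressed and 11 were high. The matching shares over all protein-coding genes are not given here, so these counts describe the 54 genes only.

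**Figure D4:**
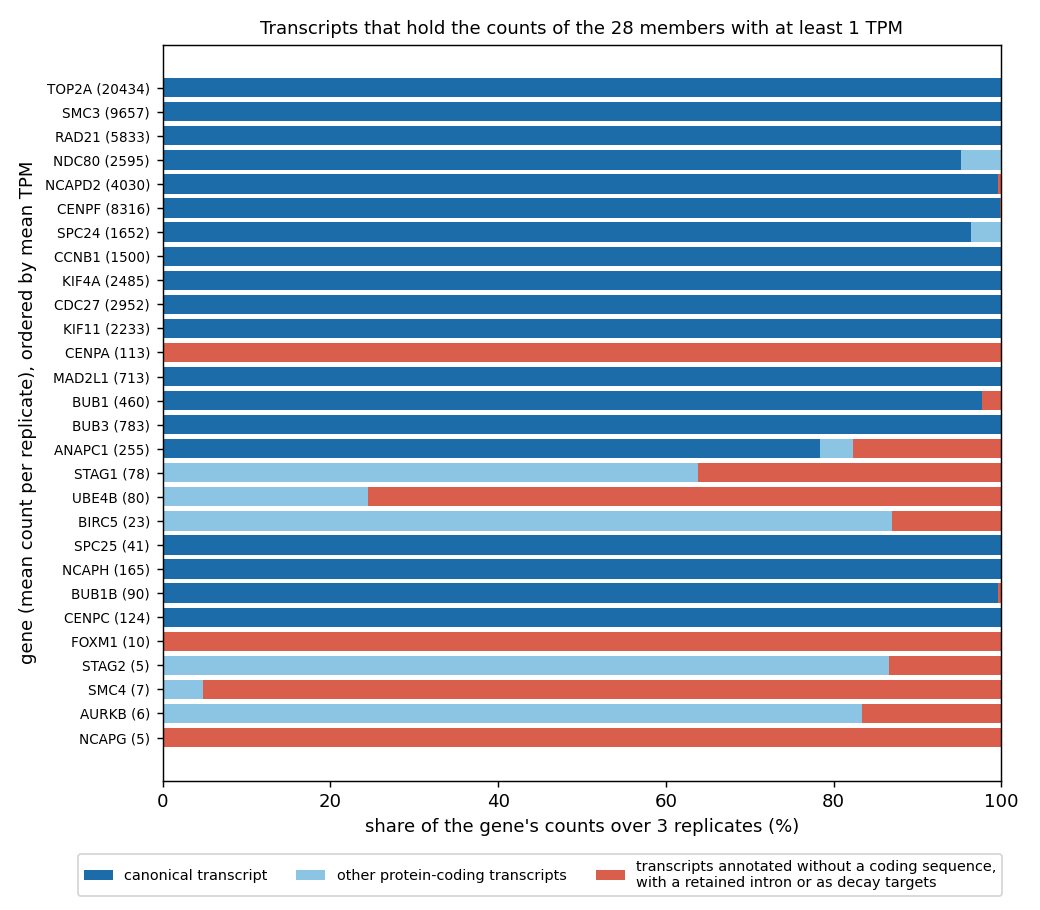
Share of the counts of each expressed gene, in percent over the 3 replicates, that fell on the canonical transcript (dark blue), on other protein-coding transcripts (light blue) and on other transcript types (red), with genes ordered by mean TPM and the mean count in brackets. Dark blue fills over 90% of the bar in 18 genes and is absent in 9.

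The replicates were compared on nuclear CPM, counts scaled to 1e+06 counts outside the mitochondrial genes, with the index of dispersion, the variance over the mean of equally scaled counts, which is close to 1 for counting noise alone. Of 24 genes with a mean of at least 10 counts, 19 exceeded an index of 3, beside 61.5% of protein-coding genes and 59.5% of all genes, and with at least 50 counts 18 of 21 did, beside 69.2%. The count rested in part on replicate 3: without it 11 of 24 genes exceeded 3, beside 32.8% of protein-coding genes, whereas 19 did without replicate 1, beside 60%, and 20 without replicate 2, beside 55.6%. The median coefficient of variation was 15.1%, beside 17.7% for protein-coding genes, and with at least 50 counts the order turned, at 14.02% beside 13.35%. At an equal coefficient of variation the index rises with the count, so its order is in part an order of counts. SMC3 had the highest index, 367, with a nuclear CPM of 1620, 1840 and 1238. TOP2A followed at 220 with 3198, 3694 and 3037, and RAD21 at 115 with 866, 862 and 1093. The core cohesin subunits moved in opposite directions in replicate 3, where SMC3 was the lowest of its 3 values and RAD21 the highest of its own. CENPF had a nuclear CPM of 1254, 1255 and 1516 and an index of 105, and CCNB1 had 230, 199 and 295 and an index of 61.1, both highest in replicate 3. CDC27 varied least, with a nuclear CPM of 479, 473 and 478 and an index of 0.121. Among genes with fewer counts, SPC25 ranged over 3.26-fold and CENPA over 2.09-fold between replicates, both highest in replicate 3. Their coefficients of variation were 53.4% and 42.5%, beside 19.4% for SMC3 and 10.4% for TOP2A.

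Replicate 3 also differed by unit. In TPM, 24 of the 28 expressed genes had a lower value in replicate 3 than the average of replicates 1 and 2, beside 79.1% of expressed protein-coding genes, with a median log2 ratio of -0.43 beside -0.44. Per count outside the mitochondrial genes, 8 of 24 were lower, beside 39.5%, and the median was 0.14 beside 0.12. With mitochondrial genes left out of the TPM total the median over the expressed genes was 0.036. The category was the same in every replicate for 44 of the 54 genes, beside 85.2% of protein-coding genes, and for 20 of the 28 expressed ones, a share close to the 71.2% of expressed protein-coding genes. The expressed genes that changed category were FOXM1, BUB1, BUB3, AURKB, CENPA, SMC4, NCAPG and STAG2. CCNB1, CDC27, NDC80, SPC24, CENPF, KIF4A, KIF11, TOP2A, NCAPD2, SMC3, RAD21 and MAD2L1, 12 genes in all, were high in every replicate.

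**Figure D5:**
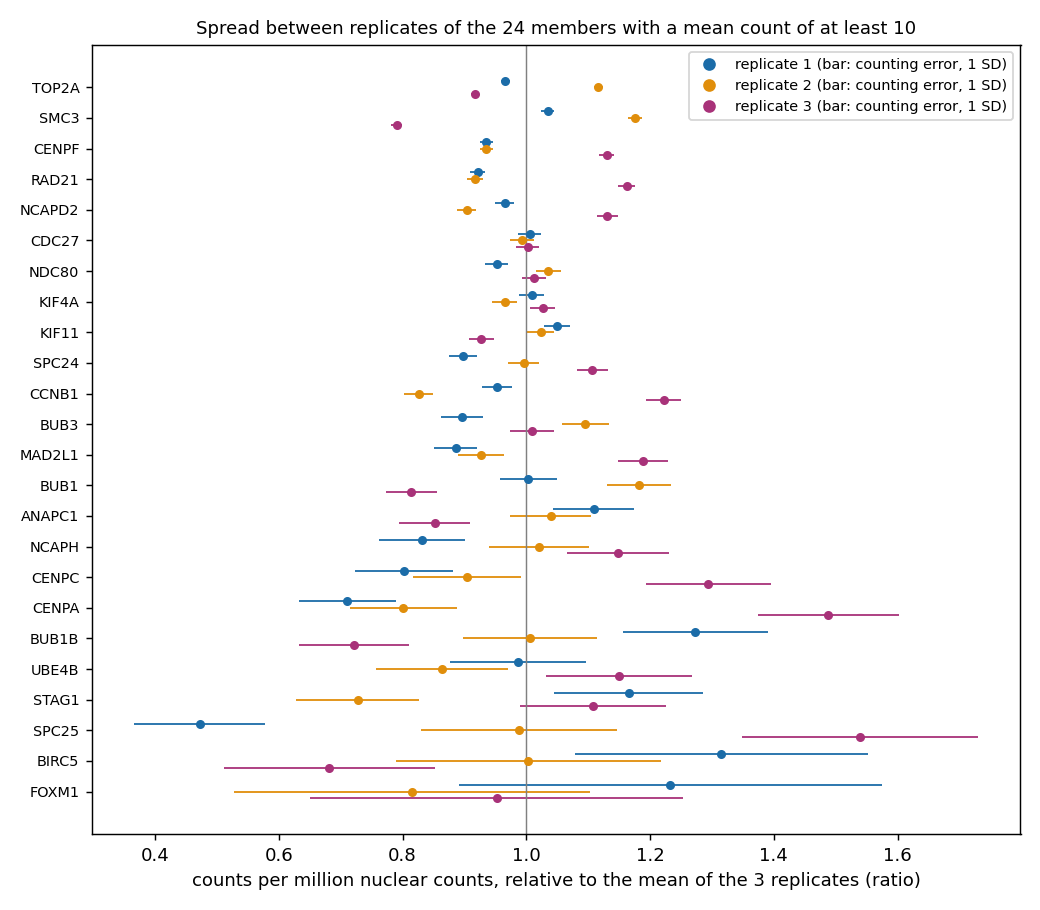
Nuclear CPM (counts scaled to 1e+06 outside the mitochondrial genes) in each replicate, divided by the mean of the 3 replicates, for the 24 genes with a mean of at least 10 counts, ordered by count. Bars are 1 SD of counting error. In SMC3 and TOP2A the points lie apart by far more than the bars, in CENPF and RAD21 only that of replicate 3 does, and those of CDC27 overlap.

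Further genes of the same machinery had a like mix of levels. Of 95 such genes on 5 lists, 53 were expressed, 27 were high and 34 had at most 3 counts, and 30 of these 34 had a shared 3′ end. Over all 95 genes 56 had a shared end, as did 11100 of 19351 protein-coding genes. Among protein-coding genes with at most 3 counts, 6813 had a shared end and 3050 an end mostly in 1 transcript. The list of the APC/C and its E2 enzymes had 10 of 16 expressed, led by the subunits CDC23 (135 TPM) and ANAPC16 (45.3 TPM), with CDC16 and UBE2C at the counting limit. Of 27 inner centromere and kinetochore genes, 15 were expressed and 10 high, led by MIS18A, which helps to load CENPA, at 446 TPM and CENPB at 185 TPM, with CENPH and PMF1 at the counting limit. The checkpoint and kinase list had 8 of 16 expressed, led by CKS2, a small CDK subunit, at 1102 TPM and SPDL1 at 325 TPM, with CKS1B and MAD1L1 at the limit. Spindle and cytokinesis genes had 8 of 18 expressed, led by GTSE1 (282 TPM) and CEP55 (120 TPM), with HMMR and NUSAP1 at the limit. For cohesin loading and release and condensin II it was 12 of 18, led by CDCA5, sororin, at 185 TPM and SGO2, a protector of centromeric cohesion, at 176 TPM, with the meiotic subunits REC8 and STAG3 at the limit.

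DNA replication genes, active earlier in the cell cycle, were set beside them. Of 47 genes, 34 were expressed, 15 were high and 11 had at most 3 counts. A shared end was found in 10 of these 11 and in 30 of the 47. The leading genes were CDT1 at 521 TPM and GINS2 at 311 TPM, with RFC2 and MCM7 at the limit. Among genes whose 3′ end lay mostly in 1 transcript, the median was 27.8 ± 6.66 TPM over the 19 genes of mitosis described here, 25.6 ± 4.47 TPM over 36 of the further mitosis genes and 58.8 ± 17.6 TPM over 17 replication genes. These medians are given as a description, since genes are not replicates.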

How the data were processed

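Per the labels, RNA from 3 replicates of HEK293T was made into QuantSeq 3′ libraries, and the submitters' processing notes name Trimmomatic 0.38.0, HISAT2 2.2.1, featureCounts 2.2.1 and the build hg38. The authors deposited a table per replicate that gives, for each of 247541 transcripts, a count of whole reads without normalization and a TPM value, in which the count is divided by transcript length and scaled to 1e+06 per library. Division by length lowers long transcripts, although the reads come from 3′ ends. Settings for reads on overlapping transcripts are not given in the sources used here. The transcript lengths, in another column deposited by the authors, were compared with the annotation.

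Identifiers without version were matched to GENCODE 44 on GRCh38 (223558 transcripts, 61193 genes, and 23983 transcripts not matched), and counts and TPM were summed per gene. A gene counted as expressed from a mean of 1 TPM. SDs are over replicates (n = 3), and the pseudocount on the log2 scale was 1. The index of dispersion, for mean counts of at least 10, was tested on simulated data, as were the motif searches. Python 3.11.15, pandas 2.3.3 and numpy 2.4.6 were used. The members, the gene lists and the comparisons were chosen with earlier results of these data known. Values in every replicate are given for the named pairs, the 10 highest members, those at the counting limit, the 5 with the highest index and those nearest a category boundary, and of each further list the 2 highest genes and up to 2 at the limit are named. The CUT&Tag part of the study was not analysed here.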

Additional observations from a re-analysis of the deposited data

How the results depend on the processing

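No paired analysis was possible because there was only 1 condition, in 3 replicates. With any mean TPM above 0 taken as expressed, 43 of the 54 genes were expressed, and with at least 10 TPM 17 were. The median of 1.49 TPM over the genes became 0 TPM on canonical transcripts alone, and 5.33, 118 and 28.7 TPM over the genes with a mean above 0, with at least 10 and with at least 1 TPM in every replicate. Genes without any count numbered 11, beside the 23 with at most 3 counts. Without replicate 3, 11 genes exceeded the index of dispersion of 3, beside 32.8% of protein-coding genes, and over all ways of leaving out 1 replicate 11 to 20 did, where the same step left 28 to 29 genes expressed, 13 to 14 high, 23 to 24 at the counting limit and a median of 1.25 to 1.61 TPM. The median log2 ratio of replicate 3 in TPM of -0.43 was -0.19 with no filter on low values, -0.49 to -0.41 without replicate 1 or 2, and turned to 0.036 with mitochondrial genes left out. With tracts of at least 2 C or G, 44 of 46 promoters held an i-motif or G-quadruplex sequence, 95.7%, beside 92.1% of all promoters. BUB3 against MAD2L1 turned to 0.15 in CPM. The cause of these changes was not tested.

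Without division by length, 8 genes changed category. Over the other alternatives, 47 values stayed within 1.5 times (counts of genes) or 1 SD between replicates (medians). Of the values of single genes and pairs, 157 stayed within 1 SD and 36 moved by more than 1 SD without a change of direction. The strand and loop settings, overlap without transcripts of changed length, and alternatives for single genes were chosen after seeing the data. A search of the proteins for the KEN motif of APC/C substrates was not run. For the 23 genes with at most 3 counts, a count of 0 allows 0.352 to 0.479 CPM by counting error alone. That limit concerns reads assigned to the listed transcripts and not the RNA of the gene. A shared 3′ end was found in 20 of the 23, in 34 of the 54 genes and in 11100 of 19351 protein-coding genes. Among protein-coding genes with at most 3 counts, 6813 had a shared end and 3050 an end mostly in 1 transcript.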
